A study of Mus musculus with 3 samples.

Results

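The 7 genes described here encode 6 enzymes of cholesterol synthesis, Hmgcs1, Idi1, Fdps, Fdft1, Sqle and Cyp51, and the sterol sensor Insig1. They were taken by gene symbol from the 33243 genes listed in any of 3 count matrices, of which 27734 were listed in every matrix, and all 7 were listed and counted in each run. The 7 were chosen with earlier results of these data known. None of them encodes a receptor that takes up cholesterol. Uptake was therefore read from a list of further sterol and lipid genes, such as Scarb1, the HDL receptor.

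Thymocytes of C57BL/6 mice (age label week 6, with no genetic change or treatment named) were profiled in 3 runs of 10x droplet RNA sequencing, with 4 thymi pooled for each sample and cells bearing CD4 or CD8 depleted before the sort. The sorts also excluded cells stained for B220, CD11b, CD11c, NK1.1 or TCRβ. Run 1 combined all double negative (DN, CD4-CD8-) stages with TCRγδ+ thymocytes. Run 2 was a sort of the DN1 and DN2 stages from which TCRγδ+ cells had been excluded, and for run 3 separate sorts of DN1 plus DN2, of DN3 and of TCRγδ+ cells were mixed. Each sort gave 1 library and none was repeated, so the runs are different mixes of cells and not replicates of a group. Populations were compared within a run. In the tests, the spread of a gene was estimated in 1 fit over all populations and runs, not from the 3 differences of a contrast alone. That spread may be partly technical.

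The matrices held unique molecular identifiers (UMIs), 39947415 in run 1, 52797915 in run 2 and 98533329 in run 3. Of 23283 cells deposited, 21879 had 500 to 5000 genes and at most 7% mitochondrial counts, with a median of 5989.5, 4844 and 8507 UMIs in the 3 runs. A level is given in CPM, the UMIs of a gene scaled by all UMIs summed over the cells of a population in 1 run, with its exact Poisson 95% interval. Intervals on levels, on folds within a run and on shares of cells cover counting error only. Levels were compared within a run, since the runs were different sorts.

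Cholesterol is built from acetyl-CoA through mevalonate and farnesyl pyrophosphate, which also feeds protein prenylation, and then through squalene and lanosterol. When sterols are scarce, the escort protein SCAP carries SREBP transcription factors from the endoplasmic reticulum to the Golgi, where they are cleaved and then turn on genes of synthesis and uptake, whereas INSIG proteins hold SCAP back when sterols are plentiful. Dividing lymphocytes need sterols for new membrane, and in the thymus early T cell precursors divide and rest in turn as they pass through the DN stages.

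Hmgcs1 (ENSMUSG00000093930, chromosome 13, 119690379 to 119708260, plus strand) encodes the synthase that makes HMG-CoA. Idi1 (ENSMUSG00000058258, chromosome 13, 8885501 to 8892451, plus strand) encodes the isomerase of isopentenyl pyrophosphate, and Fdps (ENSMUSG00000059743, chromosome 3, 89093588 to 89101959, minus strand) the synthase of farnesyl pyrophosphate. Fdft1 (ENSMUSG00000021273, chromosome 14, 63145150 to 63179578, minus strand) encodes squalene synthase, the first step that commits to sterols. Sqle (ENSMUSG00000022351, chromosome 15, 59315077 to 59331192, plus strand) encodes squalene epoxidase, and Cyp51 (ENSMUSG00000001467, chromosome 5, 4081145 to 4104746, minus strand) the lanosterol demethylase. Insig1 (ENSMUSG00000045294, chromosome 5, 28071363 to 28078662, plus strand) encodes a protein of the endoplasmic reticulum that retains SCAP and is itself a target of SREBP. Positions are of the whole gene on GRCm38 (mm10) in the GENCODE M21 annotation. On the same strand, Fdps overlaps Gm43738, which had 9 UMIs in all runs, while Akap9 overlaps Cyp51 and Ctsb overlaps Fdft1 on the opposite strand.

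The promoters of 4 members were at hand from RefSeq (GRCm38.p6), each as 300 bases that run from 250 before the start site to 50 after it. They are shown because SREBP factors are known to act on promoters of this pathway. Capitals mark the CCAAT box, which binds NF-Y and reads ATTGG on the other strand, and the sterol element TCACNCCAC.

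Hmgcs1, chr13:119690101-119690400, plus strand: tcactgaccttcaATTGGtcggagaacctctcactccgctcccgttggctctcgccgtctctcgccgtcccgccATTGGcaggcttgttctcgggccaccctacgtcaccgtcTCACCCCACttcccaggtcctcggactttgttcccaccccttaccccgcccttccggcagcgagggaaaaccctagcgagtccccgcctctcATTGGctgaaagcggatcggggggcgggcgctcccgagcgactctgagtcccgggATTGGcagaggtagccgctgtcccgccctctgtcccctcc

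Idi1, chr13:8885356-8885655, plus strand: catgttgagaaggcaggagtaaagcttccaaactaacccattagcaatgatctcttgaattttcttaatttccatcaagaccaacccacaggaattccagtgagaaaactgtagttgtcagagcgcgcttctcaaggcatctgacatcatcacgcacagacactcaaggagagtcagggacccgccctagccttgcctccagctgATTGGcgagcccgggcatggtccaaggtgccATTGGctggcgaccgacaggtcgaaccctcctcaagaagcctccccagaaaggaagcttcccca

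Cyp51, chr5:4104648-4104947, minus strand: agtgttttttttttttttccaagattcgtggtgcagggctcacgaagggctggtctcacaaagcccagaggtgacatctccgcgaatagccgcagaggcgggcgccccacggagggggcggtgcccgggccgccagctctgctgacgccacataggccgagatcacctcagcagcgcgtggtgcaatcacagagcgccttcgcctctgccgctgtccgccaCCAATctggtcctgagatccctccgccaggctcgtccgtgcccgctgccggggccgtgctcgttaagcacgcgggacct

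Insig1, chr5:28071162-28071461, plus strand: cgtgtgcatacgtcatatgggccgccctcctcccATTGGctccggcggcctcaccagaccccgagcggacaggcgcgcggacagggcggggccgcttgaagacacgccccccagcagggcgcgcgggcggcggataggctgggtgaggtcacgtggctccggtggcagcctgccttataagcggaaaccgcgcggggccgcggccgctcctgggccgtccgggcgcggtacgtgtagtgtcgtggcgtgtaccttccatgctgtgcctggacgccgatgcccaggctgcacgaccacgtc

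A CCAAT box on either strand was present in 4 of the 4 promoters, as in 37.4% of 32851 promoters of the same length. Hmgcs1 had 4 of them, with the first base at -237, -176, -45 and 11 from the start site, Idi1 had matches at -45 and -14, Cyp51 at -29 and Insig1 at -216. The sterol element TCACNCCAC was found in 1 of the 4, as TCACCCCAC at -137 of Hmgcs1, and in 1.24% of all promoters. The E-box CACGTG, which shares no bases with the other motifs, was in the promoter of Insig1 at -101 and in 7.15% of all. These are matches of letters in a short window, and binding was not measured.

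Cells were placed in populations by UMIs of stage genes, none of which is a member. DN2a-like and DN2b-like cells had Il2ra with Kit or Cpa3, without or with Rag1, Rag2 or Ptcra, DN3-like cells had Ptcra with Il2ra, Rag1 or Notch3 and no Kit or Cpa3, and γδ-like cells had Trdc and Tcrg constant genes without Ptcra, Il2ra, Cd8a or Cd8b1. A cell was called cycling when genes of S phase and mitosis took at least 30 of each 10000 of its UMIs, and resting otherwise. The gates took 16474 cells, 4608 were ungated and 797 had B cell, myeloid or dendritic genes, and 2057 of the gated cells lay within 10 per 10000 of the cycling threshold. Runs 1 and 2 shared 72 cell barcodes, runs 1 and 3 shared 1, and runs 2 and 3 shared 0.

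Marker genes outside the gates differed between the runs in some populations. Sox13, a transcription factor of γδ T cells, was at 75.7, 92.3 and 288 CPM in resting γδ-like cells of runs 1, 2 and 3 and at 17.7, 8.8 and 19.0 CPM in resting DN3-like cells. The sum of all 4 γδ markers outside the gate, listed below, was higher in γδ-like than in DN3-like cells in runs 1 and 3. In run 2 it was lower, at 1083 against 1270 CPM, so these markers as a set did not bear out the name there. Sox13 made up 92.3 of those 1083 CPM, and Cd3e, another of the 4, is also among the DN3 markers listed below. The sum is thus a weak check of the name in any run. Dntt, the terminal transferase of cells that rearrange receptor genes, was at 999, 1170 and 280 CPM in resting γδ-like cells, against 1512, 1800 and 1279 CPM in DN3-like cells. Run 2 had been sorted for DN1 and DN2 cells and against TCRγδ, yet 1298 of its cells (14.7%) met the γδ-like gate. The DN3-like gate took 940 of them (10.6%), although DN3 cells were not part of that sort. Both groups entered the comparisons like those of the other runs. The γδ-like cells of runs 1 and 2 thus had less Sox13 and more Dntt than those of run 3. This sets levels of different runs side by side, and the runs differed in sort and depth. Their gene lists differed too, with 28692 genes in runs 1 and 2 and 32285 in run 3. The paper names different kit versions and sequencers without saying which run used which. Resting γδ-like cells had a median of 3327, 3707.5 and 6818 UMIs in runs 1, 2 and 3. The gates used raw UMIs, and the part of depth, kit or gene list in these differences was not tested.

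The NK-receptor gate (at least 2 UMIs over Il2rb, Klrd1, Nkg7, Ccl5, Xcl1 and Gzmb) took 1851 resting cells in run 2 and 1100 in run 3, where Klrb1c was at 404 and 246 CPM and Trac, the TCRα constant gene, at 1481 and 563 CPM. In run 1 it took 30 resting cells, with Klrb1c and Tbx21 at 0, and 21 cycling cells, with Ifng and Tbx21 at 0 and Klrb1c at 6.18 CPM. All 4 NK-receptor markers outside the gate (Klrk1, Klrb1c, Tbx21 and Ifng) summed to 53.8 CPM in these resting cells and 18.55 CPM in the cycling ones. In resting and cycling DN3-like cells of run 1 the sums were 5.268 and 2.301 CPM. With so few cells and these markers at 0, no name was given to the cells of this gate in run 1. The DN4-like gate (Cd8a or Cd8b1 without Il2ra) took 1161 cells in run 1, but in runs 2 and 3 only 26 and 39 resting cells with Trac at 405 and 141 CPM, against 19.4 CPM in run 1, and those were not described as DN4-like. ETP-like cells, the most immature, were 91 resting cells in run 2 and 79 in run 3, in which Spi1 was at 164 and 169 CPM.

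Among resting cells, the summed level of the 7 members was highest in DN2-like, DN3-like and DN4-like cells, lower in γδ-like and ETP-like cells and lowest in NK-receptor-like cells of runs 2 and 3. The 30 resting cells of run 1 that met the NK-receptor gate, left without a name, had 430.4 CPM (325.1 to 558.9). In runs 1, 2 and 3, the sum was 386.4, 472.9 and 356 CPM in resting DN3-like cells, 354.8, 451.5 and 324.7 CPM in resting DN2b-like cells and, at the stage before, 360.9, 396.6 and 303 CPM (resting DN2a-like). Resting γδ-like cells had 303.4, 266.7 and 153.7 CPM, the lowest of these populations in each run. ETP-like cells had 198.5 CPM in run 2 and 207.6 CPM in run 3, and resting NK-receptor-like cells had 119.6 and 87.05 CPM there. The sum weighs each gene by its UMIs, to which Fdps gave more than any other member in these populations.

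**Figure D1:**
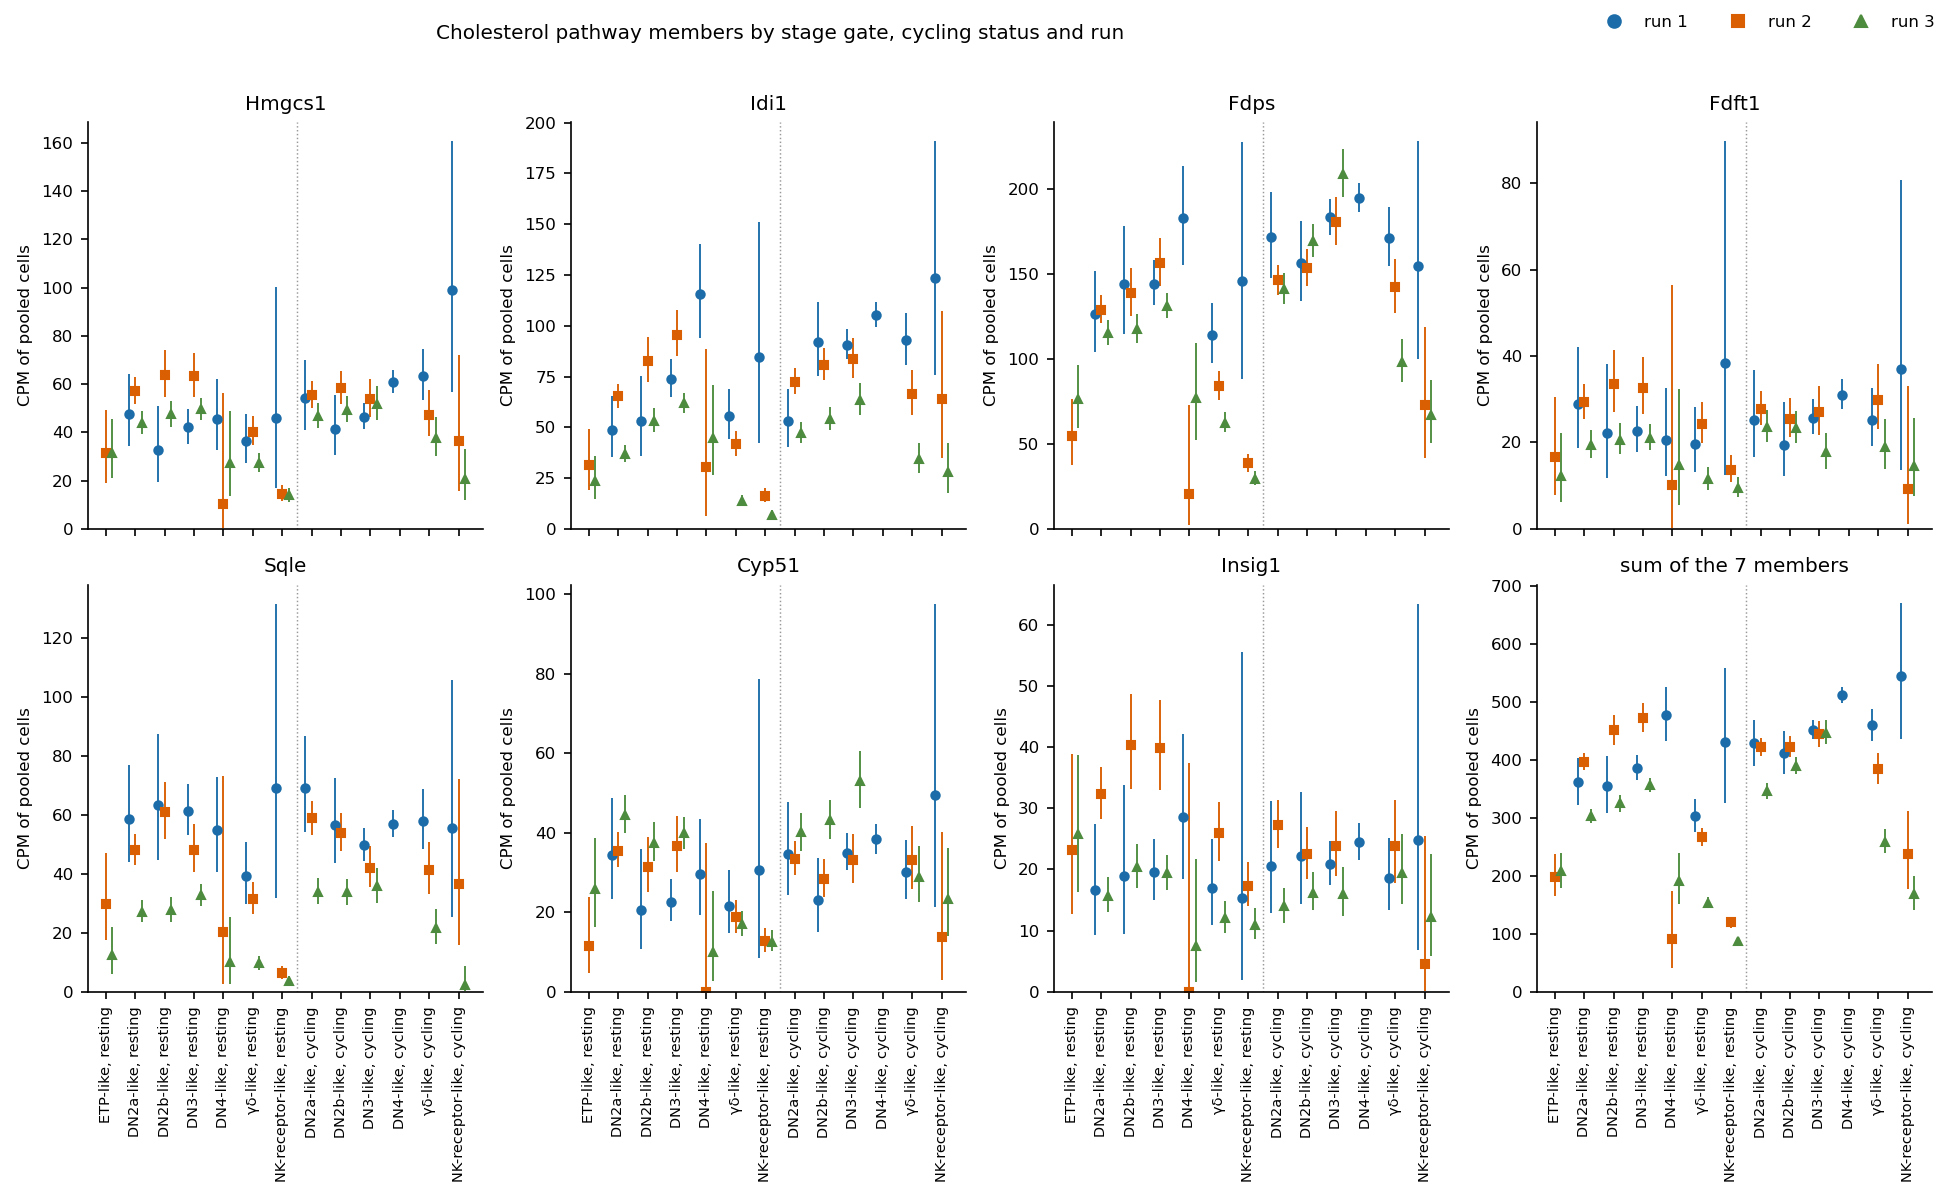
Level of each member and of their sum (CPM of the pooled cells of a population, linear axis from 0) by population, with resting populations to the left of the dotted line and cycling ones to the right. Points are runs and bars exact Poisson 95% intervals. Resting γδ-like cells fall below resting DN3-like cells in each run (sum 303.4 against 386.4, 266.7 against 472.9 and 153.7 against 356 CPM). In run 2 the γδ markers as a set did not bear out the γδ-like name. The few run 1 cells of the NK-receptor gate were not given that name.

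Within a run, neighbors in the order of the sum were often within counting error. In run 1, resting DN2a-like (360.9 CPM, 322.8 to 402.3), DN2b-like (354.8, 308.1 to 406.6) and DN3-like cells (386.4, 365.3 to 408.5) had overlapping intervals, and the γδ-like cells (303.4, 276 to 332.8) overlapped both DN2 populations but not DN3-like cells. In run 2, DN2b-like (451.5, 426.4 to 477.7) and DN3-like cells (472.9, 448.5 to 498.3) overlapped, whereas DN2a-like cells (396.6, 382.1 to 411.5) were below both. In run 3, the intervals of DN2a-like (303, 291 to 315.3) and DN2b-like cells (324.7, 310.8 to 339) overlapped and that of DN3-like cells (356, 344 to 368.2) lay above them.

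Resting γδ-like cells were compared with resting DN3-like cells. The DN3-like gate marks a stage and not the αβ lineage, so that lineage and stage cannot be told apart in this comparison. All 7 members were lower in cells of the γδ-like gate in each of the 3 runs, which 24.2% of the 12101 genes tested were. Run 2 was sorted against TCRγδ and without DN3 cells. Its summed γδ markers, a weak check, did not bear out the γδ-like name (1083 against 1270 CPM in DN3-like cells). Run 2 therefore compares cells of the gates only. It still entered the test, and fewer members were called without it, as given below. Of the 7, 6 passed the test, where 9.2% of genes were called lower and 21.8% were called in either direction. The test was the quasi-likelihood test of edgeR on counts summed per run, population and cycling status, with the run as a block and p-values adjusted over all genes. At an unadjusted p under 0.05 all 7 passed, as did 33.1% of genes in either direction, and DESeq2 called 6. The members' median log2 fold change was -0.79, against -0.01 over all genes tested. Since the members were chosen with earlier results of these data known, the shares of genes describe them and do not test the set.

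In the mevalonate part of the pathway, Idi1 had the largest difference. Idi1 was at 73.8, 95.7 and 61.9 CPM in resting DN3-like cells of runs 1, 2 and 3 and at 55.4, 41.9 and 13.9 CPM in resting γδ-like cells. The levels did not overlap between the populations over the 3 runs, and the difference was smallest in run 1 and largest in run 3. The log2 fold change was -1.28 ± 0.26 (SE, edgeR, adjusted p = 0.000347). Its log2 differences within runs 1, 2 and 3 were -0.41, -1.17 and -2.085, and the SE is that of the fit over all populations. Fdps was at 144, 157 and 131 CPM in DN3-like cells and at 114, 84.2 and 62.5 CPM in γδ-like cells, without overlap, for a log2 fold change of -0.79 ± 0.22 (edgeR, adjusted p = 0.00787). Hmgcs1 was at 42.1, 63.3 and 49.7 CPM against 36.5, 40.3 and 27.3 CPM, again without overlap (-0.62 ± 0.20, edgeR, adjusted p = 0.0238), although in run 1 its fold of DN3-like over γδ-like cells was 1.16 with an interval of 0.837 to 1.61.

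In the sterol branch, Sqle was at 61.4, 48.2 and 32.7 CPM in resting DN3-like cells and at 39.2, 31.5 and 9.61 CPM in resting γδ-like cells. The ranges over the runs overlapped because both populations were lowest in run 3, but γδ-like cells were lower within each run (log2 fold change -1.002 ± 0.24, edgeR, adjusted p = 0.00238). Cyp51 was at 22.6, 36.7 and 39.8 CPM against 21.6, 18.7 and 17.0 CPM, which was nearly equal in run 1 and apart in runs 2 and 3 (-0.88 ± 0.23, edgeR, adjusted p = 0.00471). Fdft1 was at 22.6, 32.7 and 21.1 CPM against 19.6, 24.3 and 11.45 CPM, with overlap over the runs (-0.52 ± 0.18, edgeR, adjusted p = 0.0347). The interval of its fold within run 1, 0.741 to 1.84, included equal levels. Insig1, the sensor, was at 19.5, 39.8 and 19.4 CPM against 16.9, 25.9 and 12.02 CPM, also with overlap, and did not pass (-0.53 ± 0.22, 95% interval -0.97 to -0.09, edgeR, adjusted p = 0.0778).

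The sum of the members was 1.27-fold higher in DN3-like than γδ-like cells in run 1 (1.14 to 1.42), 1.77-fold in run 2 (1.64 to 1.92) and 2.32-fold in run 3 (2.16 to 2.48). Over the 4 γδ markers that took no part in the gate (Sox13, Id3, Cd3e and Trdv4), the summed level was 1060, 1083 and 1052 CPM in γδ-like cells, with all 4 detected, and 889.4, 1270 and 892.8 CPM in DN3-like cells, with Trdv4 at 0 in runs 1 and 2. Over the 4 DN3 markers (Notch1, Dntt, Hes1 and Cd3e), it was 1874, 2324 and 964.6 CPM in γδ-like cells and 2902, 3748 and 2927 CPM in DN3-like cells. The part of these markers in the differences between the runs was not tested. Keeping only γδ-like cells with at least 1 Sox13 UMI, an alternative chosen after the data were seen, gave calls for all 7 members. The share called of the 11643 genes tested there is not given here, so this count has no background beside it. The calls rested on run 3: without it 0 of 7 members and 654 genes were called, with Idi1 at -0.86, and without run 2 only Sqle and Idi1 were called, while without run 1 there were again 6.

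**Figure D2:**
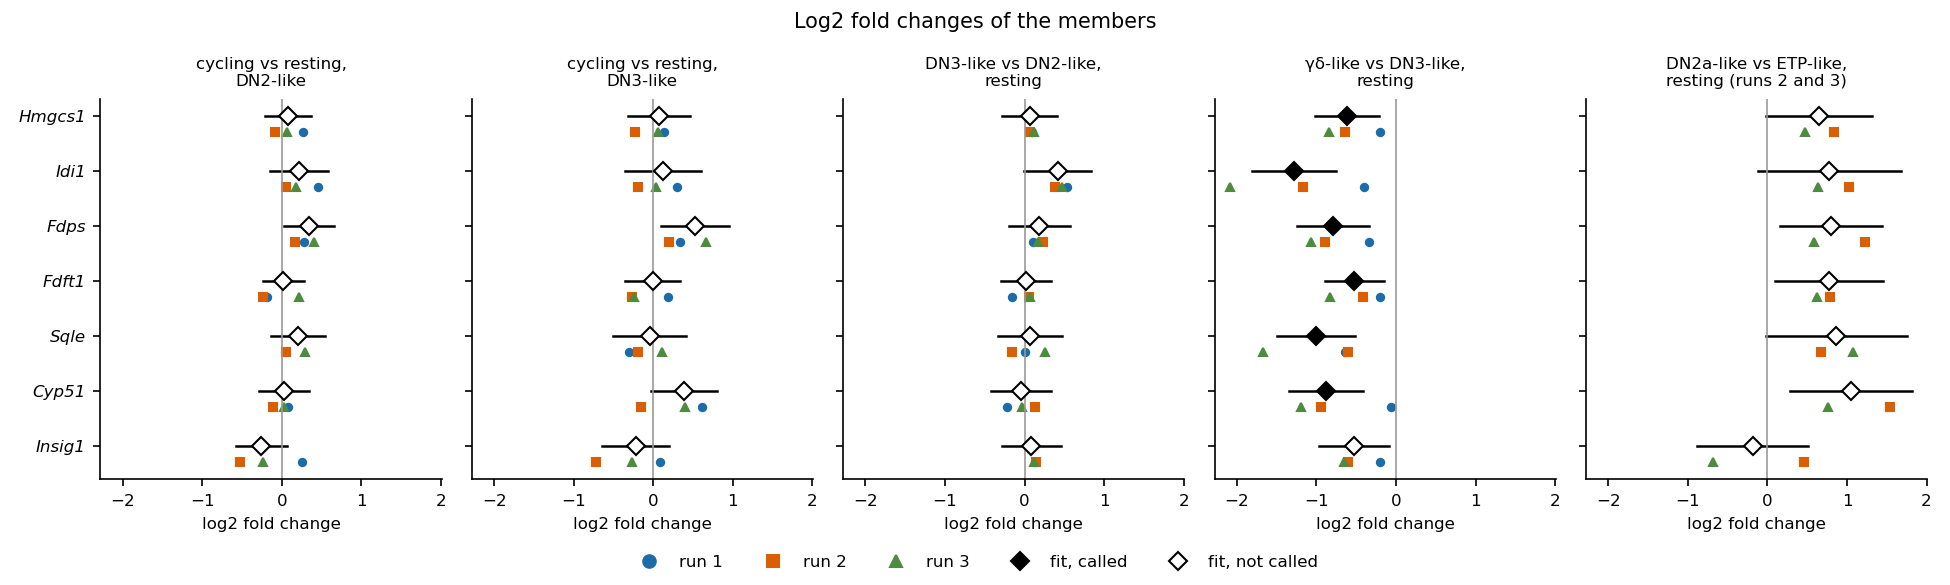
Log2 fold changes of the 7 members in 5 comparisons. Diamonds are the fitted values with 95% intervals, filled where the adjusted p was under 0.05. The colored points beneath are the differences within each run. The filled diamonds are the 6 members lower in γδ-like cells, from -0.52 for Fdft1 to -1.28 for Idi1. Run 2 entered by its gates, although its γδ markers as a set did not bear out the γδ-like name.

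Other genes of the pathway were counted from lists that had been chosen with results of these data known. Of 13 further mevalonate and sterol enzymes, 6 were lower in resting γδ-like cells and 1 was higher, to be read, like the lists that follow, against 9.2% of all genes called lower and 21.8% called in either direction. Dhcr7, a reductase of the last steps, was at 52.4, 62.7 and 49.5 CPM in resting DN3-like cells and at 45.3, 39.4 and 21.6 CPM in resting γδ-like cells, without overlap (log2 fold change -0.75, edgeR, adjusted p = 0.000291). The others that fell were Acat2, Msmo1, Nsdhl, Hsd17b7 and Tm7sf2, by between 0.56 for Acat2 and 1.54 for Hsd17b7 on the log2 scale, and Ebp, the sterol isomerase, rose by 0.38. Without run 3, 0 of the 13 were called, and without run 2 there were 2.

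For uptake and trafficking, 2 of 6 genes were lower and 0 were higher. Scarb1, the HDL receptor, was at 35.0, 37.1 and 18.7 CPM in resting DN3-like cells and at 28.4, 16.4 and 4.81 CPM in resting γδ-like cells. It was lower in each run, although the ranges over the runs overlapped (log2 fold change -1.16 ± 0.20, edgeR, adjusted p = 5.95e-05), and it was called without each run in turn. Npc1, which moves cholesterol out of lysosomes, fell by 0.51 and lost its call without run 1 or run 3. Without run 1, 1 of the 6 was called higher and 1 lower.

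Of 6 genes of SREBP control, 2 fell and 1 rose. Srebf2, the SREBP gene most linked to sterol synthesis, was at 33.5, 44.8 and 76.9 CPM in DN3-like and 25.7, 34.7 and 49.8 CPM in γδ-like cells (log2 fold change -0.49, edgeR, adjusted p = 0.0083), Mbtps1, the protease that cleaves SREBP, fell by 0.58 and Insig2 rose by 0.52. Srebf1 was not called (-0.14). Of 7 genes of efflux and storage, Apoe fell by 2.46 and Soat1, which esterifies cholesterol, by 0.62, whereas Lipa, the lysosomal acid lipase, rose by 1.58 and the exporter Abca1 by 1.36, though Abca1 was at 0 in DN3-like cells of run 2 and lost its call without run 2 or run 3. Of 7 fatty acid genes tested, the desaturase genes Fads1 and Fads2 fell, by 0.98 and 2.17. Without run 3, 0 genes of SREBP control and 0 of the fatty acid list were called, while Apoe and Lipa kept their calls, and Insig2 lost its call without each run in turn and Soat1 without run 2 or run 3.

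**Figure D3:**
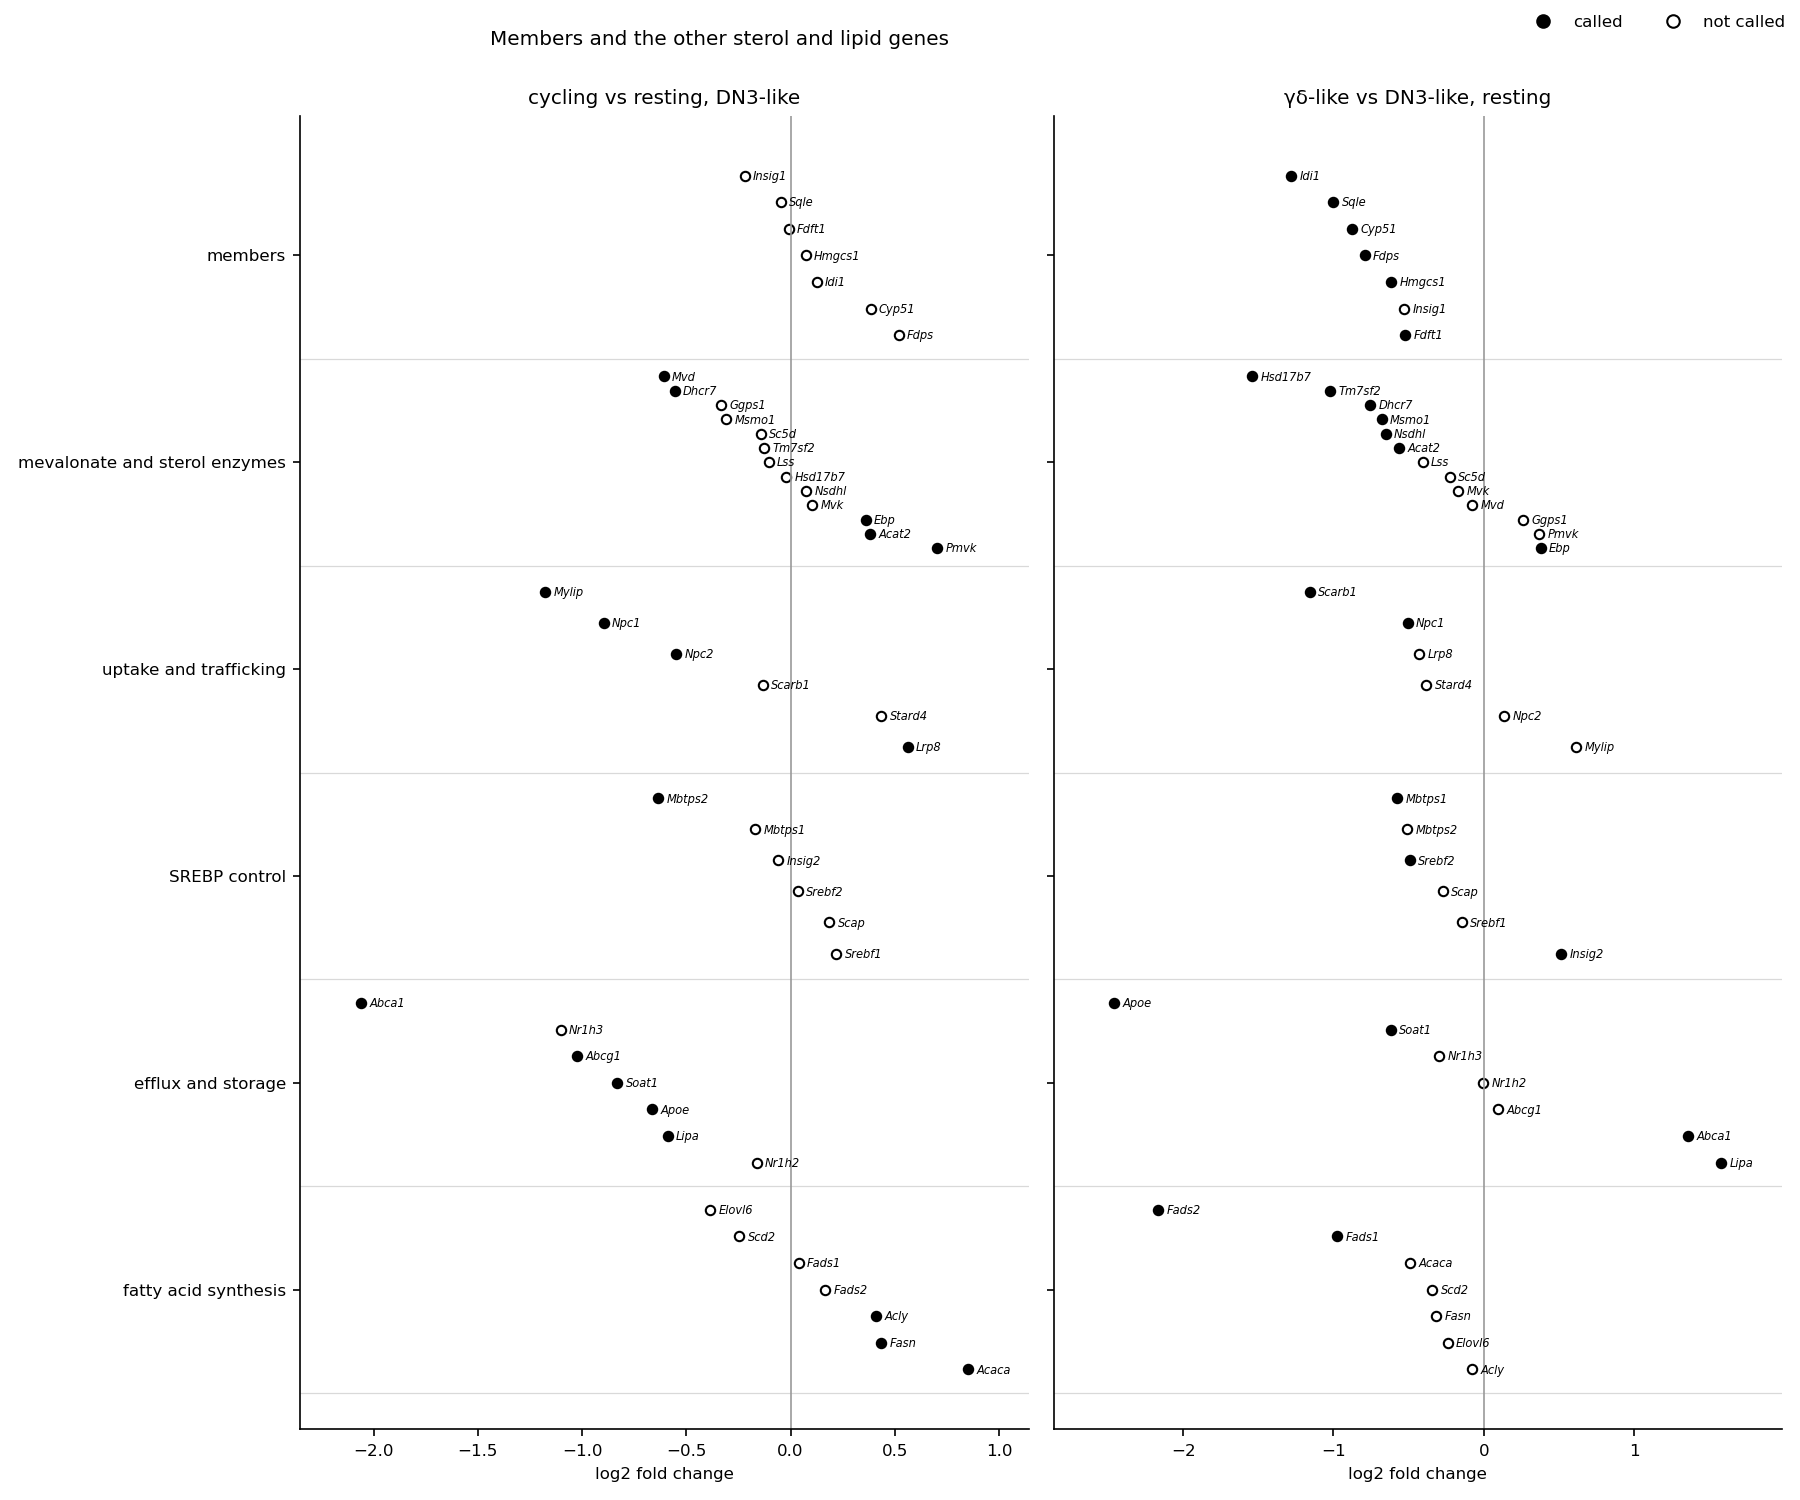
Log2 fold changes (edgeR) of the members and of the further sterol and lipid genes by list, for cycling against resting DN3-like cells and for resting γδ-like against resting DN3-like cells, with filled points for an adjusted p under 0.05. In the second panel the members lie between -1.28 and -0.52 with 6 of 7 filled, and Scarb1 lies at -1.16.

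Resting NK-receptor-like cells of runs 2 and 3 had lower levels of the members than the other resting populations named in these runs, except that Cyp51 in run 2 was at 12.7 CPM against 11.6 CPM in ETP-like cells. Some of these differences were within counting error. For example, Insig1 in run 3 was at 10.92 CPM (8.629 to 13.62) against 12.02 CPM (9.599 to 14.86) in γδ-like cells. Compared with resting DN3-like cells, all 7 members were lower in both runs, which 57.1% of 5578 genes with a mean of at least 20 CPM were, and 6 of 7 were at least 2-fold lower in both, which 8.89% of these genes were. The members were not held to that limit on the mean. This contrast was described and not tested. Idi1 was at 16.4 CPM in run 2 and 6.86 CPM in run 3, 5.84-fold (4.59 to 7.49) and 9.02-fold (6.73 to 12.3) below DN3-like cells. Sqle was at 6.37 and 3.78 CPM (7.56-fold and 8.66-fold lower). Insig1 differed least, with 17.3 and 10.9 CPM, 2.3-fold (1.74 to 3.04) and 1.78-fold (1.36 to 2.35) below DN3-like cells. The remaining members, Hmgcs1, Fdps, Fdft1 and Cyp51, were between 2.22-fold and 4.45-fold lower. The median member was lower by a log2 difference of -1.91, against -0.21 over those genes, and DN3-like over NK-receptor-like cells gave a fold of 0.878 and 1.03 for Srebf1 and of 1.71 (1.34 to 2.18) and 2.89 (2.46 to 3.41) for Srebf2, which was thus also lower in NK-receptor-like cells. The 4 NK-receptor markers outside the gate (Klrk1, Klrb1c, Tbx21 and Ifng) summed to 1279 and 832.5 CPM in these cells and to 44.47 and 28.29 CPM in DN3-like cells.

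Resting DN2a-like and ETP-like cells were compared in runs 2 and 3, the only runs with enough ETP-like cells. The sum was 2-fold higher in DN2a-like cells in run 2 (1.66 to 2.42) and 1.46-fold higher in run 3 (1.26 to 1.7). Fdps was at 129 and 115 CPM in DN2a-like cells and at 54.6 and 76.3 CPM in ETP-like cells, and Cyp51 at 35.5 and 44.5 CPM against 11.6 and 25.8 CPM. DN2a-like cells were higher in both runs for 6 of 7 members, which 35.3% of the genes tested were, but 0 of 7 passed the adjusted test, where 6.82% of genes were called. The count at an unadjusted p under 0.05 was 3 of 7 (Fdps, Fdft1 and Cyp51), where 18.0% of genes passed, and DESeq2 called 0. The log2 fold change of Cyp51 was 1.05 ± 0.37 (95% interval 0.29 to 1.81, edgeR, adjusted p = 0.0965) and that of Fdps 0.80 ± 0.31 (0.16 to 1.44, edgeR, adjusted p = 0.137). Leaving out run 1, which held no ETP-like sum but entered the estimate of the spread, gave calls for Cyp51 and Fdps.

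Insig1 went the other way in run 3, with 15.7 CPM in DN2a-like and 25.8 CPM in ETP-like cells, and had 32.3 against 23.2 CPM in run 2. The median log2 fold change was 0.78 over the members and 0.04 over all genes tested. Among the further sterol and lipid genes 2 were called, where 6.82% of all genes were. These were Apoe (-2.99) and Abca1 (-2.29), both lower in DN2a-like cells, and Abca1 lost its call without run 3. Srebf2 (0.34) and Srebf1 (0.19) were not called.

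In the comparison of resting DN3-like cells with the mean of resting DN2a-like and DN2b-like cells, 0 of 7 members were called, where 6.96% of genes were called by edgeR. None had an unadjusted p under 0.05, where 17.7% of genes did, and DESeq2 called 0. Idi1 was at 48.7, 65.3 and 37.0 CPM in resting DN2a-like cells, 53.1, 82.8 and 53.3 CPM in the DN2b-like ones and 73.8, 95.7 and 61.9 CPM in DN3-like cells, so that DN3-like cells were highest in each run. Its log2 fold change was 0.41 with a 95% interval of -0.01 to 0.84 (edgeR, adjusted p = 0.298). For the other 6 members, the estimates lay between -0.04 for Cyp51 and 0.19 for Fdps, and the 95% intervals reached from -0.42 to 0.56. Among the further genes, Dhcr7 (0.70), Mbtps1 (0.61), Apoe (1.38) and Soat1 (0.87) rose and none fell, against 6.96% of all genes called. Dhcr7 lost its call without run 2 and Mbtps1 without run 3. Srebf2 (0.16) and Srebf1 (0.23) were not called. This comparison and the ones above share the resting DN2a-like or DN3-like sums.

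Cycling cells were compared with resting cells of the same stage. In DN3-like cells, 0 of 7 members were called, where 37.7% of genes were called by edgeR. The count at an unadjusted p under 0.05 was 1, where 45.8% of genes passed, and DESeq2 called 0. Fdps was at 144, 157 and 131 CPM in resting and at 183, 181 and 209 CPM in cycling DN3-like cells, without overlap over the runs, and its log2 fold change was 0.52 ± 0.21 (95% interval 0.09 to 0.95, edgeR, adjusted p = 0.0502). This lay at the threshold, and Fdps was called without run 1 (0.59). Cyp51 was at 22.6, 36.7 and 39.8 CPM in resting and 35.0, 33.0 and 53.1 CPM in cycling cells, higher in runs 1 and 3 and lower in run 2 (0.38, -0.03 to 0.80, edgeR, adjusted p = 0.138).

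Among the other 5 members, the estimates in DN3-like cells lay between -0.22 for Insig1 and 0.13 for Idi1, with 95% intervals that reached from -0.64 to 0.60. Insig1 was at 19.5, 39.8 and 19.4 CPM in resting and 20.9, 23.8 and 16.0 CPM in cycling DN3-like cells, so that the difference lay mainly in run 2. The sum of the members was 1.17-fold higher in cycling cells in run 1 (1.09 to 1.25) and 1.26-fold in run 3 (1.19 to 1.33), and 0.939-fold in run 2 (0.873 to 1.01). Cycling cells held more RNA, with a median of 10611, 9567 and 20926 UMIs against 3230, 4515 and 7413 in resting DN3-like cells, and CPM is relative to that total.

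In DN2-like cells, 0 of 7 members were called between cycling and resting cells, where 29.9% of genes were called by edgeR. The count at an unadjusted p under 0.05 was 1, where 40.3% of genes passed, and DESeq2 called 0. Fdps was again the highest estimate (0.34 ± 0.15, 95% interval 0.02 to 0.65, edgeR, adjusted p = 0.0966) and was called without run 1 (0.37). Fdps was at 126, 129 and 115 CPM in resting and 172, 146 and 141 CPM in cycling DN2a-like cells. Insig1 had the lowest estimate (-0.26, -0.58 to 0.06). With cycling set at 20 per 10000 UMIs, Sqle, Idi1 and Fdps were called. The share of all genes called at that threshold is not given here, and it was 29.9% at the main one. For the difference between the DN3-like and DN2-like cycling contrasts, 0 of 7 members were called, where 0.0578% of genes were called by edgeR, none had an unadjusted p under 0.05, where 10.5% did, and DESeq2 called 0.

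Further sterol genes were compared between cycling and resting DN3-like cells, where 37.7% of all genes were called, so that a share of a list near this value says nothing particular of the list. Of 6 uptake and trafficking genes, 3 fell, namely Npc1 (-0.90), Npc2 (-0.55) and Mylip (-1.18), which encodes a ubiquitin ligase, and Lrp8 rose (0.56). Npc1, Npc2 and Mylip kept their calls without each run in turn, and Lrp8 lost its call without run 2 or run 3.

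Of the 7 efflux and storage genes, 5 fell in cycling DN3-like cells, namely Abca1, Abcg1 (-1.02), Apoe (-0.66), Soat1 (-0.83) and Lipa (-0.59). Abca1 rested on few UMIs, with 1.55, 0 and 4.56 CPM in resting cells, and it, Apoe and Lipa lost their calls without run 3. Of 13 enzymes, Pmvk (0.70), Acat2 (0.38) and Ebp (0.36) rose and Mvd (-0.61) and Dhcr7 (-0.56) fell, a share near the 37.7% of all genes called. Among fatty acid genes, Acaca (0.85), Fasn (0.44) and Acly (0.41) rose, and of the genes of SREBP control Mbtps2 (-0.63) fell. Srebf2 (0.04) and Srebf1 (0.22) were not called. Without run 3, 0 enzymes rose, 2 fell and 0 genes of the fatty acid list or of SREBP control were called. Acat2, Ebp, Acly and Fasn also lost their calls with scaling by RLE factors or by library totals.

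In cycling DN2-like cells, Acat2 (0.36), Mvk (0.33) and Ebp (0.25) rose among the 13 enzymes and Mvd fell by 0.49, against 29.9% of all genes called in either direction. Lrp8 (0.37), Stard4 (0.44) and Srebf1 (0.33) rose, while Npc1 (-0.34), Npc2 (-0.40), Mylip (-0.54), Mbtps1 (-0.29), Mbtps2 (-0.41), Abcg1 (-0.53), Lipa (-0.69) and Abca1 (-1.50) fell. Without run 3, 12 of these 15 genes were not called, and of the 3 that kept their calls, Npc2, Abcg1 and Lipa, the latter pair lost them without run 2. Srebf2 (-0.12) was not called.

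When cycling cells were split by whether S phase or G2/M genes had more UMIs, the sum of the members was highest in S-like cells in each gate and run where both were available. In DN3-like cells of runs 1, 2 and 3, it was 386.4, 472.9 and 356 CPM in resting cells, 483.2, 562.4 and 533.1 CPM in S-like cells and 423.7, 383.6 and 377.2 CPM in G2/M-like cells. The intervals of S-like and G2/M-like cells did not overlap in any of the 3 runs (for example 500.3 to 567.4 and 352.3 to 403.3 CPM in run 3). In DN2-like cells, the sum was 474.7, 476.8 and 424.9 CPM in S-like and 358.7, 378.5 and 327.7 CPM in G2/M-like cells, also without overlap within a run, and resting cells had 358.5, 411.7 and 312.6 CPM. In γδ-like cells, the sum was 484.4, 442.9 and 273.6 CPM in S-like and 434.2, 342 and 252.3 CPM in G2/M-like cells. Their intervals overlapped in run 1 (444.7 to 526.7 and 396.6 to 474.4 CPM) and in run 3 (237.8 to 313.2 and 228.6 to 277.7 CPM), but not in run 2. The split was described and not tested, and its S-like groups in DN3-like cells held 294, 134 and 92 cells.

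Member by member, 5 of 7 were higher in S-like than in G2/M-like DN3-like cells in every run (Hmgcs1, Idi1, Fdps, Sqle and Cyp51), which 25% of 5242 genes were. This share, like those of the other phase comparisons, is over genes with a mean of at least 20 CPM. The members were not held to that limit. Fdps was at 186, 233 and 259 CPM in S-like and 181, 154 and 169 CPM in G2/M-like DN3-like cells, close in run 1 and apart in runs 2 and 3. Idi1 was at 102, 108 and 79.6 CPM against 80.2, 71.7 and 50.6 CPM, higher in S-like cells by more than 20 CPM in each run. In DN2-like cells, 6 of 7 were higher in S-like cells in every run, all but Cyp51, which 26.8% of 5487 genes were. In γδ-like cells, 2 of 7 were (Idi1 and Fdft1), as were 21% of 5429 genes. G2/M-like DN3-like cells were higher than resting cells in every run for 0 of 7 members and lower for Sqle, against 33% and 36.3% of genes. Compared with resting cells, S-like cells were higher in every run for 5 of 7 members in DN3-like cells (all but Sqle and Insig1, 33.5% of 5466 genes) and for 3 of 7 in DN2-like cells (Idi1, Fdps and Sqle, 30.1% of 5595 genes). In DN2-like cells, G2/M-like cells were higher than resting ones in every run for 0 of 7 members, where 29.6% of 5629 genes were, and lower for Idi1 and Cyp51, where 35.1% were.

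**Figure D4:**
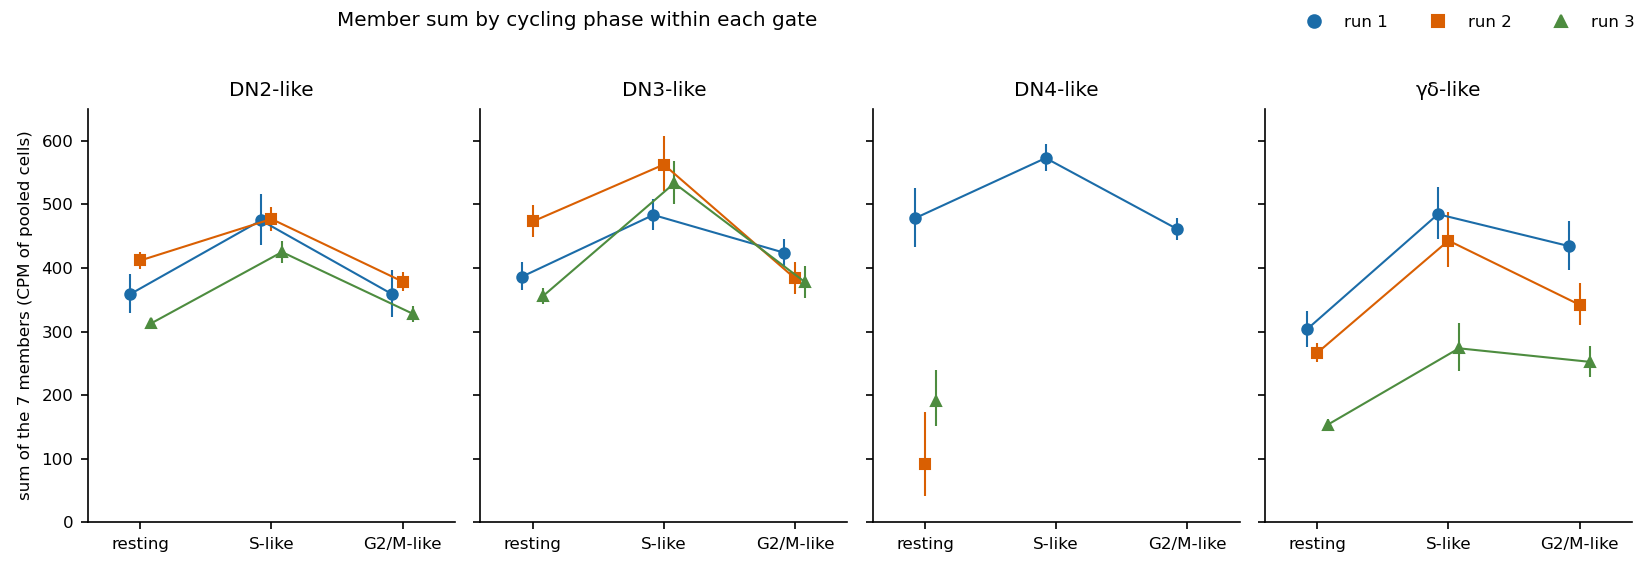
Summed level of the 7 members (CPM, linear axis from 0) in resting, S-like and G2/M-like cells of each gate, with points for runs and exact Poisson 95% intervals. S-like cells are highest in each gate and run with all 3 groups, from 273.6 CPM in γδ-like cells of run 3 to 572.6 CPM in DN4-like cells of run 1. In γδ-like cells of runs 1 and 3, the intervals of S-like and G2/M-like cells overlap. In run 2 the γδ markers as a set did not bear out the γδ-like name, in resting or in cycling cells.

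The contrast of cycling with resting γδ-like cells was described and not tested. The sum was 303.4, 266.7 and 153.7 CPM in resting and 459.4, 384.3 and 259 CPM in cycling γδ-like cells, a fold of 1.51 (1.35 to 1.7), 1.44 (1.32 to 1.58) and 1.69 (1.53 to 1.86). Idi1 was at 55.4, 41.9 and 13.9 CPM in resting and 92.9, 66.6 and 34.3 CPM in cycling γδ-like cells, and Fdps at 114, 84.2 and 62.5 CPM against 171, 142 and 98.3 CPM. S-like γδ-like cells were higher than resting ones in every run for 7 of 7 members, where 31.7% of 5582 genes were, and G2/M-like cells for 6 of 7, where 32.9% of 5620 genes were. Sox13 was lower in cycling γδ-like cells, at 28.8, 14.2 and 103 CPM, against 75.7, 92.3 and 288 CPM in resting ones. The 4 γδ markers outside the gate summed to 718.8, 724.1 and 710.6 CPM in cycling γδ-like cells of runs 1, 2 and 3. In cycling DN3-like cells they summed to 591, 917.2 and 551.1 CPM. In run 2 these markers as a set thus did not bear out the γδ-like name of the cycling cells either. Run 2 therefore compares cells of the gate only. The part of Sox13 or of the other markers in the difference was not tested.

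DN4-like cells of run 1, 88.4% of which were cycling, had the highest sum among cells that kept a stage name in that run. The sum was 511.8 CPM (498.3 to 525.5) in 1026 cycling DN4-like cells and 451.7 CPM (435.5 to 468.3) in 575 cycling DN3-like cells, a fold of 1.13 (1.08 to 1.19). Hmgcs1 was at 60.9 against 46.5 CPM (1.31-fold, 1.14 to 1.51) and Idi1 at 105.3 against 90.6 CPM (1.16-fold, 1.05 to 1.29). For the other 5 members, the intervals of the fold included 1. With 1 library holding DN4-like cells, these values have no replicate check.

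DN3-like cells were also split by genes that respond to receptor signaling. Only run 3 had 20 or more cells with at least 3 UMIs over Cd5, Cd69, Egr1, Egr2, Egr3 and Nr4a1. There, the sum was 370.1 CPM (340.3 to 401.9) in 165 resting cells with this signal and 361.3 CPM (343.8 to 379.4) in 553 without it, and 406 CPM (369.3 to 445.3) against 443.8 CPM (411.2 to 478.3) among cycling cells. Both pairs of intervals overlapped.

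Per cell, a UMI of any member was frequent in DN3-like cells and less so in γδ-like and NK-receptor-like cells. After each cell had been thinned to 2000 UMIs, for which 48 cells of run 3 were too shallow, 47.6%, 53.6% and 44.4% of resting DN3-like cells of runs 1, 2 and 3 had one, against 39.5%, 32% and 24.3% of resting γδ-like cells. Among resting NK-receptor-like cells it was 18.5% in run 2 (16.7% to 20.3%, Clopper-Pearson) and 14.1% in run 3 (12.1% to 16.3%). Cycling DN3-like cells had 58.8%, 51.6% and 54.2%, so that their order with resting cells differed between runs as the CPM did. Before thinning, the shares of resting DN3-like cells were 67.7%, 77.4% and 80%. No population that should lack these genes was present to give the background of free RNA. The variance of the thinned counts over their mean was between 1.05 and 1.99 in each population, where 1 is the value of Poisson counting.

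Across populations, 6 of the 7 members had similar patterns. Over 30 sums with at least 50 cells, each gene centered within its run, Pearson's r of log2(CPM + 1) with the mean of the other members was 0.96 for Hmgcs1, 0.95 for Fdps, 0.94 for Idi1, 0.91 for Sqle, 0.90 for Cyp51 and 0.88 for Fdft1, but 0.55 for Insig1. These are descriptions, since the points share 3 libraries and their depth. The members were also chosen with earlier results of these data known, so that their likeness is no test of the set. Among the 10 genes outside the members with the highest r to their mean, of 5623 ranked, were Cdca7 (0.96), Cdv3 (0.95), Ly6k (0.93), Ada (0.93), Prkar2b (0.92), Psmd3 (0.92), Swi5 (0.92), Dars (0.92) and Acat2 (0.92). Acat2, which joins acetyl-CoA units at the start of the pathway, belongs to the enzyme list. Scarb1 had an r of 0.84 (rank 159) and Srebf2 of 0.80 (rank 324). Other listed genes shared the pattern less or not at all. Among the enzymes, r was 0.73 for Msmo1 and 0.65 for Dhcr7 but 0.34 for Pmvk, -0.11 for Mvd, -0.32 for Sc5d, -0.33 for Ebp and -0.38 for Ggps1. In the other lists, r was 0.68 for Scd2, 0.60 for Scap and 0.53 for Elovl6. Values there were as low as 0.14 for Npc1, 0.12 for Fasn and -0.37 for Lipa.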

How the data were processed

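Cells of 3 libraries were measured by 10x 3' RNA sequencing, 1 library per sort. The authors deposited UMI counts per gene and cell on mm10, made with Cell Ranger (version 4.0.0 in the header of the third matrix, not given for the others in the sources used here) and without normalization. The submitters' notes also name R 3.6.3 and Seurat 2.3. Total counts and median UMIs per cell stand in the report. The filter was 500 to 5000 genes and a mitochondrial share up to 7%. Doublets were kept, except in an alternative that removed the 700, 750 and 750 cells with the highest Scrublet scores (scanpy 1.11.5).

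Cells were gated on raw UMIs and counts summed per run, gate and cycling status, for sums of at least 20 cells. The 36 sums were fitted in edgeR 4.0.16 (limma 3.58.1, R 4.3.3) with TMM scaling, filterByExpr and the quasi-likelihood F test (two-sided), with Benjamini-Hochberg adjustment over 12101 genes at a threshold of 0.05, 21 residual degrees of freedom, a median dispersion of 0.0114 and 11.5 prior degrees of freedom. SE is the absolute log2 fold change over the root of F, and 95% intervals of fold changes use the t quantile at the degrees of freedom of the test. The run was a block because the populations of a run come from 1 library. Over 11 populations and 5709 genes, same-run deviations from the population means correlated in all 165 pairs (r 0.27 to 0.96, median 0.75). Different runs had a median of -0.48 and a highest value of 0.33. Deviations from a mean over 3 runs sum to 0, which pushes the values of different runs below 0, so they do not bear on the choice of a block. Alternatives were DESeq2 1.42.0, no low-count filter, RLE factors, library totals, no block, each run left out, thinned cells, other cycling thresholds, doublet removal, a 5% mitochondrial limit and, added after the data were seen, γδ-like cells with Sox13. NumPy 2.4.6, pandas 2.3.3, SciPy 1.17.1 and matplotlib 3.10.9 ran under Python 3.11.15. The named genes were all 7 members, the called genes of 5 fixed pathway lists with Srebf2 and Srebf1 always, and the 10 genes most similar to the members. Of 44 listed genes 4 are not reported here, and list counts are over the other 40. Members and lists were chosen with earlier results of these data known. No clustering was used.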

Additional observations from a re-analysis of the deposited data

How the results depend on the processing

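Of the values of single members under the alternatives, 516 kept their side of the threshold, 21 lost and 16 gained a call. With a call in the main fit or the alternative, 0 changed direction. Changes of direction between values without a call were not counted apart and lie among the 516. Without the run as a block, so that differences between runs enter the spread, 549, 546, 55, 250 and 87 genes were called for cycling DN2-like, cycling DN3-like, DN3 against DN2, γδ against DN3 and DN2a against ETP, in place of 3619, 4567, 842, 2642 and 825, and 0 members for γδ. With cells thinned to 2000 UMIs, which leaves fewer counts, these were 286, 1185, 210, 1215 and 228 genes, and Hmgcs1 and Fdft1 lost their calls in γδ-like cells. They also did with cycling from 50 per 10000, when 2694 genes were called for cycling DN3-like, and Fdft1 did without a low-count filter (adjusted p = 0.0537). Cycling gained 1 member, Fdps, in DN2-like cells without a low-count filter and in DN3-like cells without that filter, from 20 per 10000, with doublets removed or with the 5% limit, and 3 members in DN2-like cells from 20 per 10000. DN2a against ETP gained 2 members without the filter and 1 with doublets removed. For these gains, the shares of all genes called under the same settings are not given here.

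Leaving out 1 run gave 1381 to 3414 genes and 0 to 1 members for cycling DN2-like, 2234 to 3707 and 0 to 1 for cycling DN3-like, 243 to 839 and 0 to 0 for DN3 against DN2, 654 to 2898 and 0 to 6 for γδ against DN3, 134 to 858 and 0 to 2 for DN2a against ETP, and 0 to 0 genes for the difference of the cycling contrasts. That difference had 7 genes, 41 with DESeq2, 24 without the filter, 2 with library totals, 13 with doublets removed, 3 with the 5% limit, and 0 without the block, thinned, or from 20 or 50 per 10000. Library totals and RLE factors moved the share of calls that were higher from 47.5% to 37.2% and 40.3% for cycling DN2-like and from 47.6% to 36.4% and 38.1% for cycling DN3-like, and RLE from 37.3% to 27.1% for DN2a against ETP. The median gene in cycling DN3-like cells moved from -0.09 to -0.20 and -0.18. Fasn and, among DN2-like cells, Lrp8 and Stard4 lost their direction with cycling from 50 per 10000 and with thinned cells, respectively. Few cells limit the precision in some populations, as in the 91 and 79 resting ETP-like cells.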

Other observations

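Some cells belong to no comparison. In run 3, the 552 cells with more than 5000 genes, which the filter removes, had a sum of the 7 members of 335 CPM (326.8 to 343.5), with Fdps at 148 CPM, Idi1 at 45.2 CPM and Insig1 at 14.7 CPM. Cells with B cell, myeloid or dendritic genes had a sum of 258 CPM in run 2 and 180.4 CPM in run 3 when resting and 398.1 and 338 CPM when cycling. Ungated resting cells had 391.9, 266.3 and 226.3 CPM in runs 1, 2 and 3 and ungated cycling cells 477.1, 412.5 and 350.2 CPM, higher than the resting ones in each run. The 26 and 39 resting cells of runs 2 and 3 that met the DN4-like gate had 91.11 CPM (41.66 to 173) and 191 CPM (150.8 to 238.8), and the 30 resting and 21 cycling cells of run 1 that met the NK-receptor gate had 430.4 CPM (325.1 to 558.9) and 544.1 CPM (436.4 to 670.3).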
